A study of Mus musculus with 2 samples.

Results

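The genes described here are 10 immediate early transcription factor genes of the AP-1 and Egr groups, namely Fos, Fosb, Fosl2, Jun, Junb, Jund, Egr1, Egr2, Egr3 and Atf3. They were chosen by name and all 10 were found among the 32285 genes of the deposited matrix. They were followed across 18 cell classes of the mouse dentate gyrus at 30 days of age, measured by droplet single-cell RNA sequencing (10x Chromium). Control animals were Nestin-Cre, Phf2+/+, and the conditional knockouts (cKO) were Nestin-Cre, Phf2flox/flox. Each genotype was represented by 4 mice, which went into 1 library. All animals carried the Nestin-Cre transgene, in which a Nestin promoter drives Cre in neural precursors, so no group lacked Cre. Barcodes carry the suffix 1 or 2 and no label ties a suffix to a genotype, so the values below are for library 1 and library 2 and no difference is given a direction by genotype. Tissue was taken after perfusion and dissociated with enzymes before capture. Every cell passed through that dissociation, so a level present in the animal and a level set during dissociation cannot be told apart here.

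Immediate early genes are transcribed within minutes of a stimulus without new protein synthesis. Serum response factor with its ternary complex partners at CArG boxes, and CREB or ATF proteins at cAMP response elements (CRE), are their classic inputs downstream of MAP kinases and calcium. FOS family and JUN family proteins pair through leucine zippers to form AP-1, ATF3 binds CRE-like and AP-1-like sites, and the EGR zinc-finger proteins bind GC-rich sites. In the dentate gyrus, Fos, Egr1 and Egr3 are widely used as marks of recently active granule neurons, and several of the 10 genes are also known to respond to tissue dissociation, above all in microglia.

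Proximal promoter sequence is shown for 6 of the genes, several of which had much the same order of levels across classes. Each sequence is the 120 bases before a RefSeq start (GRCm38.p6), 5′ to 3′ on the gene's strand. Capitals mark TGACG, the core of a CRE, on either strand, and in Egr2 also a CArG box.
Fos, chr12:85473770-85473889, plus strand: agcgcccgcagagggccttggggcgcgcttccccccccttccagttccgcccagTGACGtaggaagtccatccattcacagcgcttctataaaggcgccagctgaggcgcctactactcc
Fosb, chr7:19310046-19310165, minus strand: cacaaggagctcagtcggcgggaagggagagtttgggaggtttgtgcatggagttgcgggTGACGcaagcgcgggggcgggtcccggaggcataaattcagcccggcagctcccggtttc
Jun, chr4:95052223-95052342, minus strand: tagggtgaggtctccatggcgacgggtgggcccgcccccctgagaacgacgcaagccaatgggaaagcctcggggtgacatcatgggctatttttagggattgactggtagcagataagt
Junb, chr8:84978749-84978868, minus strand: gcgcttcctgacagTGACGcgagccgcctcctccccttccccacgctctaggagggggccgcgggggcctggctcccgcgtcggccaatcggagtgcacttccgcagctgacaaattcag
Egr2, chr10:67537749-67537868, plus strand: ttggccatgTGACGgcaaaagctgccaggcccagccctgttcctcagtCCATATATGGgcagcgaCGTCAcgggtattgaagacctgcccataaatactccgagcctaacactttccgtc
Atf3, chr1:191183334-191183453, minus strand: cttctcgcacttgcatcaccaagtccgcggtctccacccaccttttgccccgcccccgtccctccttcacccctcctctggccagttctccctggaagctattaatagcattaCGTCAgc
Windows of 250 upstream bases were found in the RefSeq table for 8 of the 10 genes, all but Egr1 and Egr3. These 8 genes had 12 windows, since a gene can have several starts. TGACG on either strand was in at least 1 window of 5 genes (Fos, Fosb, Junb, Egr2 and Atf3). Counted by window, it was in 7 of the 12 and in 17.8% of 32851 windows of that length. The Fos window held it at bases -66 to -62 and -129 to -125 from the start, and a TATAAA at -33 to -28. Egr2 had 5 listed starts, and the window shown was picked because it held both motifs. In it a CArG box lay at -72 to -63, between copies of the CRE core at -111 to -107 and -55 to -51. A CArG box was in 4 of the 12 windows of these genes, all of Egr2, and in 1.47% of all windows. The Atf3 core lay at -7 to -3. The complete CRE TGACGTCA, the AP-1 site TGACTCA and the Egr site GCGTGGGCG were in none of the 12 windows and in 1.55%, 4.46% and 0.536% of all windows. The sequence printed for Jun held no TGACG. These are letter matches only, and no binding was measured.

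Library 1 held 102897659 unique molecular identifiers (UMIs, 1 per captured transcript) and library 2 held 107266420. After filtering, 8029 and 8129 cells remained with medians of 8092 and 7232 UMIs, and 23 cell barcode sequences occurred in both libraries. Cells were grouped without using the 10 genes, and 18 classes were named from marker genes. They are called X-like because the names rest on those markers alone, and that suffix is dropped from here on for RGL (radial glia-like stem cells), cycling progenitors, neuronal intermediate progenitors (nIPC), neuroblasts, granule neurons, Cajal-Retzius cells, astrocytes, oligodendrocyte precursors (OPC), committed precursors (COP), oligodendrocytes, microglia, border macrophages, endothelial cells, pericytes, smooth muscle cells, fibroblasts, choroid plexus cells and erythroid cells. A further 594 of 16158 cells stayed unnamed. Phf2, the gene targeted in the knockout, was at 16.4 and 13.4 counts scaled to a common class total (CPM) in RGL of libraries 1 and 2 and at 13.5 and 9.47 CPM in neuroblasts, which belong to the neural lineage. Phf2 was at 25.9 and 13.1 CPM in nIPC, also of the neural lineage, and at 22.2 and 22.1 CPM in microglia. The counted 3′ ends may lie outside the deleted part, so these values check nothing. Below, a pair of values is always library 1 and library 2. CPM scale the UMIs of a gene to 1000000 UMIs of the class, and since 1 UMI stands for 1 captured 3′ end they do not scale with gene length. Intervals on counts are exact Poisson 95% intervals that cover counting error only, and no interval or p-value here measures the spread between mice.

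The 10 genes together were most abundant in microglia, the resident macrophages of brain tissue. Their summed level there was 30343 and 25239 CPM, so that 78.1% and 71.6% of the UMIs of the 10 genes in all kept cells, named or not, came from microglia, which held 32.4% and 24.4% of all UMIs. Border macrophages, the macrophages of meninges and perivascular spaces, followed at 15747 and 15965 CPM. Smooth muscle (8814 and 6092 CPM), endothelial cells (8503 and 7825 CPM) and erythroid cells (8207 and 6291 CPM) formed the next level. The erythroid values carry a limit, since 52.0% and 26.8% of these cells were rich in microglia markers, as described below. Their cluster also scored 4.81 for endothelial markers, beside 6.58 for erythroid and 2.93 for microglia markers. The score is the mean log2 excess of a class's markers over the median cluster. Whether endothelial RNA raised the erythroid values was not tested. RGL stood at 2146 and 2634 CPM, and astrocytes were lowest by mean at 632 and 494 CPM beside oligodendrocytes at 849 and 859 CPM and granule neurons at 1057 and 1052 CPM.

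**Figure D1:**
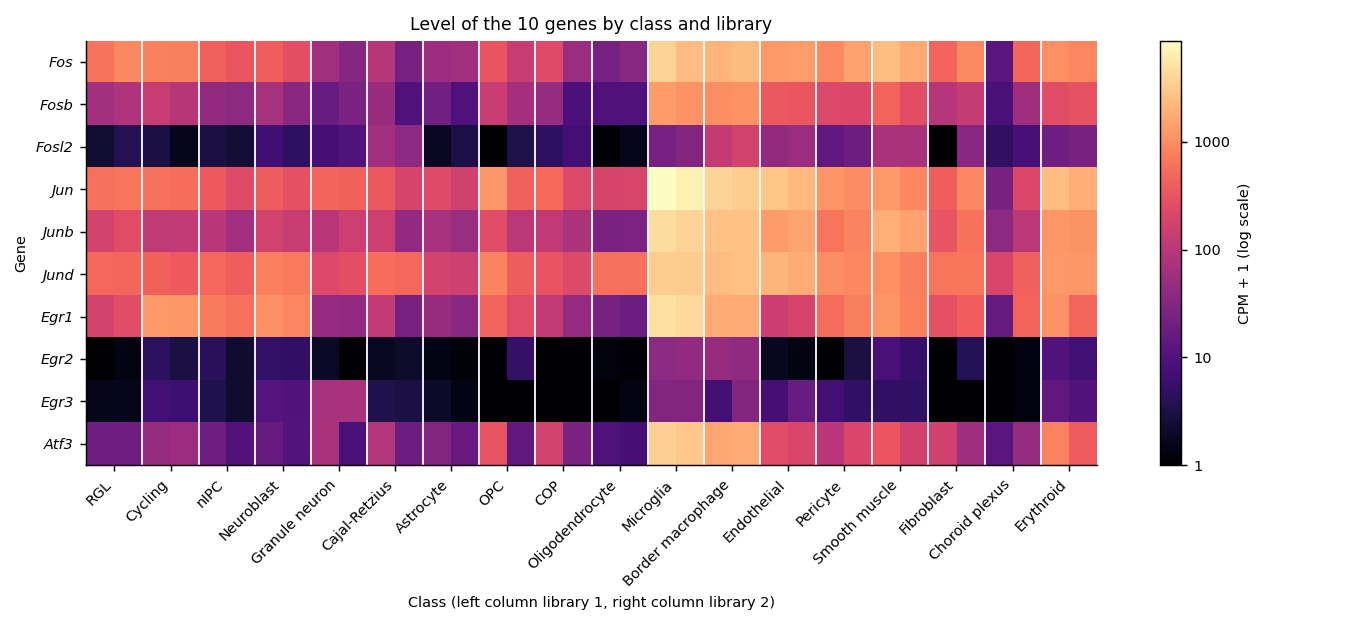
Level of each of the 10 genes (rows) in each of 18 classes (columns, with library 1 on the left and library 2 on the right of each pair), as CPM + 1 on a logarithmic colour scale. Microglia and border macrophages are bright for nearly every gene, Egr1 and Fos stand out in cycling progenitors, Egr1 also in nIPC and neuroblasts, and Egr3 is brightest in granule neurons.

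Among the Fos genes, Fos itself, the inducible partner of JUN proteins, was at 3791 and 2507 CPM in microglia and at 21.7 and 32.4 CPM in oligodendrocytes, the lowest class by mean. The highest mean was 116-fold the lowest. Border macrophages (2135 and 2369.6 CPM) lay just below the microglial range, and smooth muscle (2537 and 1703 CPM) overlapped with both. Endothelial cells (1254 and 1340.1 CPM) and pericytes (949 and 1519 CPM) overlapped each other. Within the neural classes Fos was at 802 and 775 CPM in cycling progenitors, 628 and 904 CPM in RGL, 425 and 330.1 CPM in nIPC and 411 and 271 CPM in neuroblasts. It was far lower in granule neurons (58.0 and 31.5 CPM) and astrocytes (50.6 and 58.1 CPM), whose ranges overlapped. Over the ordered 18 classes, only 4 of 17 neighbouring pairs had library ranges that did not overlap, so most neighbours could not be ordered.

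Fosb, which encodes full-length FOSB and a shorter stable isoform that 3′ counts do not separate, followed Fos in the macrophages but with less distance between them. It was at 1284 and 1105 CPM in microglia and 1014 and 1105 CPM in border macrophages, with overlapping ranges. Endothelial cells were at 346 and 331 CPM, RGL at 62.1 and 80.8 CPM, and oligodendrocytes lowest at 8.40 and 8.60 CPM.

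Fosl2, a less transiently induced Fos family member, had a different order. Border macrophages were highest at 126 and 181 CPM, apart from smooth muscle at 70.7 and 69.2 CPM. Cajal-Retzius cells, early-born neurons of the outer dentate layer, were at 59.3 and 37.7 CPM, overlapping with endothelial cells at 42.7 and 51.5 CPM, and microglia were only at 22.1 and 28.9 CPM. In RGL it was at 1.33 and 2.81 CPM, nIPC at 2.08 and 1.43 CPM, and oligodendrocytes at 0.140 and 0.632 CPM. OPC of library 1 had 0 UMIs, which allows up to 12.7 CPM, and those of library 2 were at 2.23 CPM.

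The Jun genes encode the other arm of AP-1. Jun was at 8673 and 6860.0 CPM in microglia, 3901 and 3369 CPM in border macrophages and 2980.2 and 2328 CPM in endothelial cells, and each of these ranges was apart from the next. It was still at 473 and 437 CPM in granule neurons, 237 and 164 CPM in astrocytes and 193 and 197 CPM in oligodendrocytes. Choroid plexus cells had the lowest mean, with 22.6 and 211 CPM that lay far apart. Junb, which can limit JUN activity, was at 4609 and 3972 CPM in microglia, 2736 and 2762 CPM in border macrophages, 1933 and 1447 CPM in smooth muscle and 1300.4 and 1557 CPM in endothelial cells. It reached only 101 and 57.8 CPM in nIPC and 23.4 and 25 CPM in oligodendrocytes. Jund, known as the least inducible Jun gene, had the smallest distance between its highest and lowest mean among the 8 genes without a class at 0 in both libraries, 19.5-fold. It ran from 3399.8 and 3283 CPM in microglia to 183 and 159.6 CPM in astrocytes, with 807 and 681 CPM in neuroblasts and 571 and 572 CPM in oligodendrocytes.

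Egr1, the most abundant Egr gene, was at 4989 and 4334 CPM in microglia and 1753 and 1751 CPM in border macrophages. Cycling progenitors followed at 1275 and 1224 CPM, above the range of any other neural class. Neuroblasts (1068 and 869 CPM) and nIPC (724 and 568 CPM) came next among the neural classes, with ranges that did not overlap. RGL were at 180.4 and 250.4 CPM, astrocytes at 47.3 and 36.0 CPM, granule neurons at 45.8 and 41.3 CPM and oligodendrocytes at 22.7 and 16.9 CPM. In endothelial cells Egr1 was only at 147 and 192 CPM although Fos and Jun were high there.

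Egr2, known for myelination by Schwann cells and for myeloid cells, was rare in every class. It was at 47.0 and 39.5 CPM in border macrophages and 36.3 and 41.5 CPM in microglia, which overlapped, and microglia were the higher of the pair in library 2. Erythroid cells, many of them rich in microglia markers, were at 9.0 and 6.16 CPM, smooth muscle at 7.42 and 4.49 CPM, and neuroblasts were at 4.22 and 3.96 CPM. COP had 0 UMIs in both libraries, which allows up to 5.42 and 3.88 CPM.

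Egr3, a factor induced downstream of calcium signalling and EGR1, was the gene with its highest level in neurons. It was at 65.5 and 70.0 CPM in granule neurons and 28.7 and 29.6 CPM in microglia, with ranges apart. Neuroblasts were at 10.1 and 9.25 CPM, cycling progenitors at 6.23 and 5.71 CPM, nIPC at 2.38 and 1.23 CPM, and RGL at 0.530 and 0.602 CPM. No Egr3 UMI was counted in COP, fibroblasts or OPC of either library. In OPC this allows up to 12.7 and 6.70 CPM, above the nIPC level, so the depth could not place them.

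Atf3, a stress-inducible CREB family member that pairs with JUN proteins, had the widest span of those 8 genes, 436-fold. It was at 3509.7 and 3079 CPM in microglia and 1585 and 1749 CPM in border macrophages. Endothelial cells were at 258 and 203 CPM. In the neurogenic line it was low throughout, with 18.6 and 18.3 CPM in RGL, 18.3 and 9.02 CPM in nIPC, 14.8 and 9.47 CPM in neuroblasts and 45.7 and 50.8 CPM in cycling progenitors. Oligodendrocytes were lowest at 8.54 and 6.58 CPM.

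**Figure D2:**
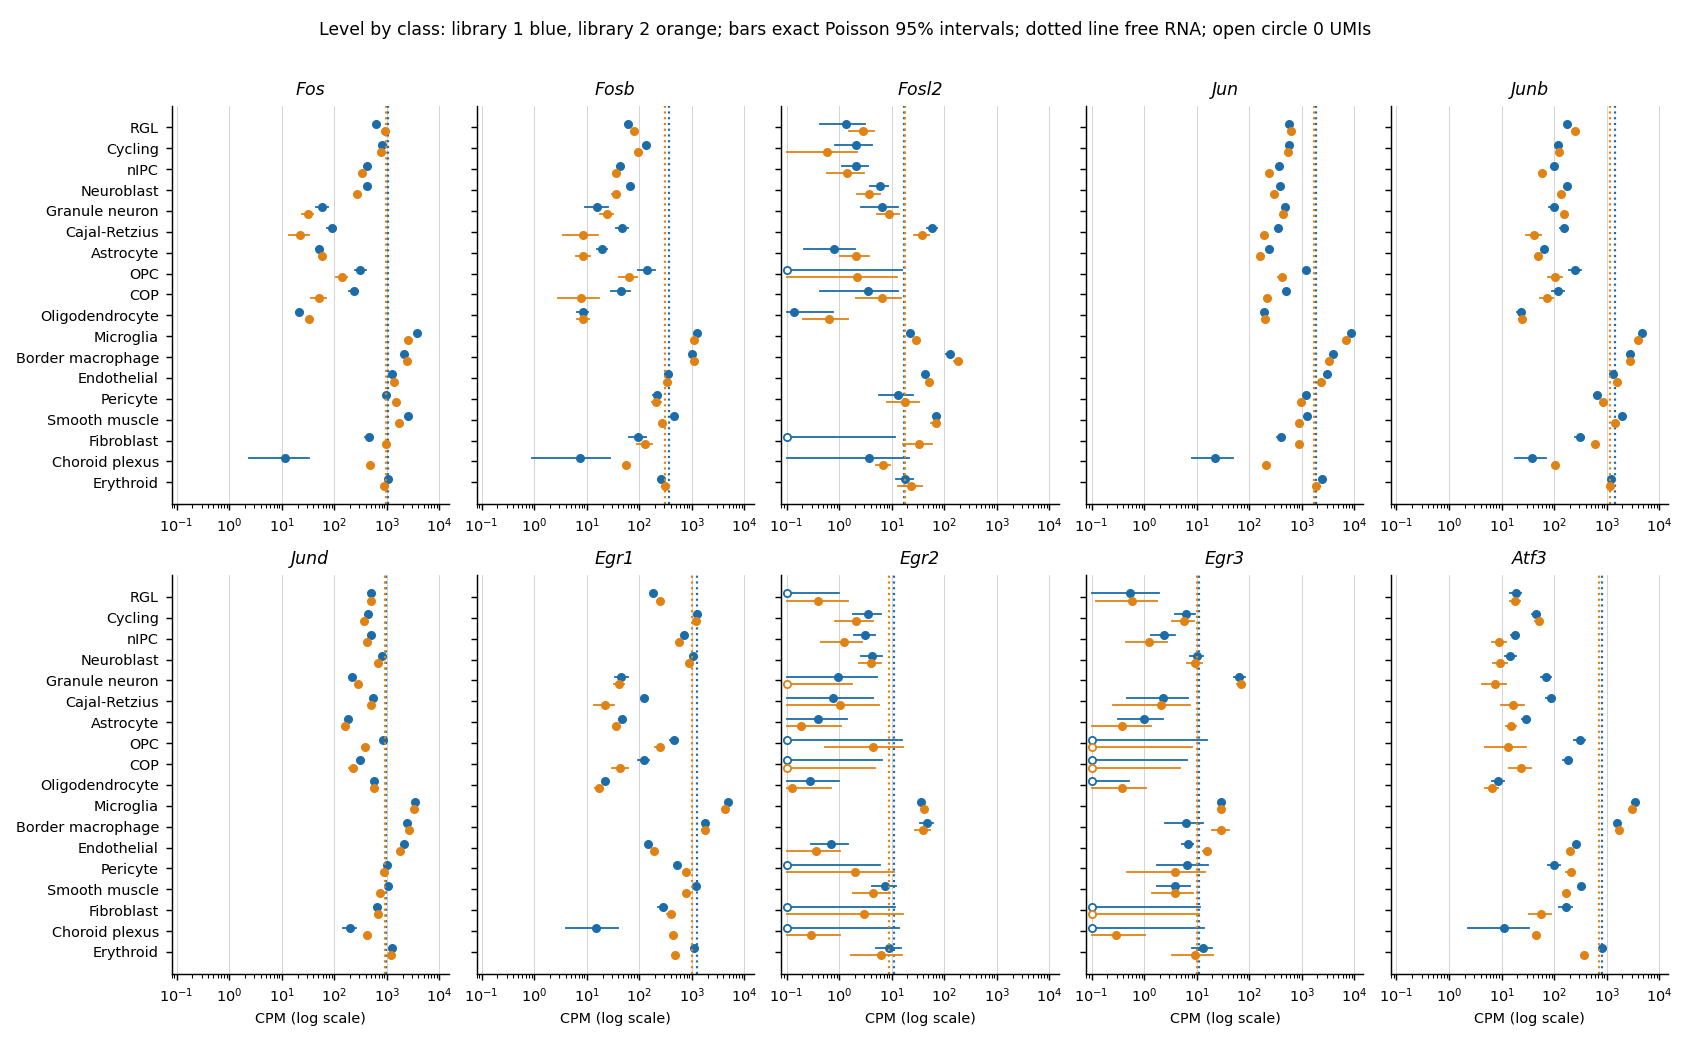
CPM on a log axis for each of the 10 genes (panels) in 18 classes (rows), library 1 in blue and library 2 in orange, with exact Poisson 95% intervals, open circles for 0 UMIs, and dotted lines at the level in free RNA. Microglia have the highest mean for 7 genes, border macrophages for Fosl2 and Egr2, and granule neurons for Egr3, where 65.5 and 70.0 CPM lie right of both dotted lines.

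RNA free in the suspension carries these transcripts too. In barcodes with fewer than 100 UMIs, Jun was at 1848 and 1728 CPM, Egr1 at 1253 and 1005 CPM, Fos at 1044 and 954 CPM and Atf3 at 804 and 715 CPM. Since a class cannot hold more free RNA than its scarcest member allows (counting interval included), the low Atf3 of RGL limits free RNA to at most 2.92% and 3.14% of its UMIs. That share would supply at most 30.4 and 29.9 CPM of Fos, against 628 and 904 CPM measured, and at most 36.5 and 31.5 CPM of Egr1, against 180.4 and 250.4 CPM. In nIPC the limit was 2.72% and 1.69%, and in neuroblasts 2.32% and 1.78%, which puts at most 29.0 and 17.9 CPM of Egr1 against 1068 and 869 CPM. Astrocytes differ in this respect. Their limit of 4.20% and 2.64% allows 43.9 and 25.2 CPM of Fos, beside a measured 50.6 and 58.1 CPM, and 52.6 and 26.5 CPM of Egr1, beside 47.3 and 36.0 CPM, so Egr1 of library 1 lay within what free RNA could supply and Fos exceeded it in both libraries. In granule neurons free RNA could supply at most 0.528 and 0.173 CPM of Egr3.

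Shares of cells with a transcript were taken after thinning every cell to 1000 UMIs, because depth differed between classes. Jun was found in 93.2% and 89.7% of microglia, Egr1 in 88.1% and 82.3%, and Fos in 75.4% and 64.4%. Without thinning, Fos was found in 89.8% and 85.3% of microglia. No class is known to lack these genes, so oligodendrocytes, with Fos in 2.41% and 2.81% of cells and Egr1 in 1.37% and 1.69%, were used as the lowest reference. Astrocytes were near it for Fos at 3.37% and 3.56%, while RGL had Fos in 17.6% and 23.8% of cells (37.0% and 41.8% without thinning, when RGL had a median of 6721 and 6335 UMIs per cell and oligodendrocytes 23807 and 21762.5). Egr1 was found in 50.9% and 41.0% of cycling progenitors, 42.2% and 35.9% of neuroblasts, 37.1% and 28.8% of nIPC and 9.42% and 10.3% of RGL. Egr3 was found in 6.12% and 6.60% of granule neurons after thinning, but in 67.3% and 67.0% before it, because these cells were deep (medians of 20867 and 19497.5 UMIs) and the gene was present in most of them at a low level. Jund was the gene found in most oligodendrocytes, 41.2% and 47.5%.

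Co-detection within a cell was most frequent in the macrophages. At 1000 UMIs, 82.9% and 77.9% of microglia held transcripts of at least 5 of the 10 genes, with a median of 6 genes per cell in both libraries. The share was 56.8% and 56.3% in border macrophages, 35.7% and 24.4% in erythroid cells (many of them rich in microglia markers), 29.3% and 16.5% in smooth muscle, 19.9% and 21.0% in endothelial cells and 12.1% and 4.29% in cycling progenitors. It was 2.97% and 3.47% in RGL although 64.2% and 62.8% of RGL had at least 1 of the genes, and 0.435% and 0.108% in astrocytes. Within RGL the genes still occurred together. Egr1 was found in 31.7% and 32.8% of RGL with a Fos transcript (101 and 192 cells) against 4.66% and 3.25% of those without (472 and 615 cells). Junb was found in 33.7% and 31.8% against 6.57% and 4.23%, and Fosb in 15.8% and 15.1% against 3.18% and 0.976%. Jun, more broadly present, was found in 54.5% and 54.7% against 25% and 24.7%, whereas Atf3 was found in 2.97% and 3.65% against 1.27% and 1.95%. Cells of 1 library are not replicates, so these are descriptions of the libraries, and the split used Fos itself.

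The make-up of the set also differed between classes. Fos supplied 29.2% and 34.3% of all UMIs of the 10 genes in RGL, where Jun supplied 27.2% and 24.3%. In nIPC, neuroblasts and cycling progenitors Egr1 was the leading gene, with 33.1% and 34.4%, 36.2% and 37.5%, and 37.6% and 38.3%. Jun led in granule neurons (44.8% and 41.5%), microglia (28.6% and 27.2%) and endothelial cells (35.0% and 29.7%), Jund led in oligodendrocytes (67.3% and 66.6%), and Fos led in smooth muscle (28.8% and 27.9%).

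Differences between classes were tested with edgeR's quasi-likelihood test with Benjamini-Hochberg adjustment over 15361 genes, on the summed counts of all 18 classes in both libraries and with library as a block. Log2 differences are given with their standard error (SE). They use trimmed-mean scaling factors and so differ somewhat from ratios of CPM. A gene passed at an adjusted p under 0.05. The 2 libraries stood in as the only replicates, but they held animals of different genotypes. The spread behind these p-values therefore includes any difference between genotypes or pools that varied with class.

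The first contrast was between RGL and astrocytes, which share much of their expression and separate the neurogenic stem cell from the mature glial cell. Of the 10 genes 6 were higher in RGL, 0 were lower and 4 did not pass. Of all genes tested 32.6% passed (15% higher and 17.6% lower), and the median log2 difference was 1.25 over the 10 genes and -0.01 over all. Fos differed most, at 628 and 904 CPM against 50.6 and 58.1 CPM, an 11.2-fold difference (log2 3.48, SE 0.59, adjusted p = 1.35e-05). The classes did not overlap for any of the 6. Egr1 was 4.16-fold higher (log2 2.06, SE 0.53, adjusted p = 0.00262) and Fosb 4.17-fold (log2 2.06, SE 0.41, adjusted p = 0.000122). Fosb was at 62.1 and 80.8 CPM against 19.7 and 8.43 CPM, and its log2 difference was 2.86 without library 1 and 1.28 without library 2. Removal of a 5% free RNA share takes several low astrocyte values close to 0 and widens such differences, that of Fosb to 6.13. That share is above the limits of 4.20% and 2.64% in astrocytes and 2.92% and 3.14% in RGL, so it removes more than those limits allow. Without cells rich in microglia markers the Egr1 difference was 2.81. The Jun genes followed with smaller differences, 2.95-fold for Junb (adjusted p = 0.000973), 2.47-fold for Jun (adjusted p = 0.0131, and 0.0585 with DESeq2) and 2.28-fold for Jund (adjusted p = 0.000538). Atf3 did not pass, at 18.6 and 18.3 CPM against 28.8 and 15.1 CPM (log2 -0.51, SE 0.61), nor did Fosl2 (log2 0.22, SE 0.68) or Egr3 (log2 -0.58, SE 1.02). Egr2 had 2 UMIs in RGL and 3 in astrocytes, which gives no fold. Microglia markers summed to 205 and 178 CPM in RGL and 389 and 188 CPM in astrocytes, with 0 of 10 markers at 0, so they were not higher on the RGL side. The median share of mitochondrial UMIs was 6.79% and 7.88% in RGL and 10% and 11% in astrocytes. With cells limited to 10% mitochondrial UMIs, the same 6 genes passed as higher and 0 as lower. Beyond that setting, the part of this share in the result was not tested.

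Along the neurogenic line the second contrast set nIPC and neuroblasts, the mean of both, against RGL. Here 3 of the 10 rose, 4 fell and 3 did not pass the test, where 58.2% of all genes tested passed (27.7% higher and 30.4% lower). The 3 that rose were all Egr genes. Egr1 was at 896 and 718 CPM in these progeny against 180.4 and 250.4 CPM in RGL, 3.31-fold higher (log2 1.73, SE 0.46, adjusted p = 0.00168). Egr3 was at 6.25 and 5.24 CPM against 0.530 and 0.602 CPM (log2 2.74, SE 0.66, adjusted p = 0.000667). The RGL values of Egr3 rest on 2 and 3 UMIs, and the unfitted log2 difference was 1.73 without library 1 and 2.25 without library 2. For Egr2, 65 UMIs in the progeny stood against 2 in RGL. The ratio was 13.6 per UMI with an exact 95% interval of 3.62 to 115 (adjusted p = 0.000114). The fitted log2 difference was 3.41, and the unfitted values were 1.45 without library 1 and 2.76 without library 2. The 4 that fell were AP-1 genes. Fos was at 418 and 301 CPM, 2.35-fold lower than in RGL (log2 -1.23, SE 0.44, adjusted p = 0.0166), and Jun at 375 and 265 CPM was 2.13-fold lower (adjusted p = 0.00595). Junb was 2.10-fold lower (adjusted p = 0.00242) and Fosb 1.79-fold lower (log2 -0.84, SE 0.31, adjusted p = 0.0200). The Fos and Fosb calls were lost with DESeq2 (adjusted p = 0.111 and 0.119), and the Fos call after removal of a 5% free RNA share (adjusted p = 0.132). A share of 5% is above the limits given for RGL, nIPC and neuroblasts, so that setting removes more than those limits allow. Jund (log2 0.12, SE 0.23), Fosl2 (log2 0.35, SE 0.52) and Atf3 (log2 -0.71, SE 0.56) did not pass. Without library 1 the Fos difference was -1.74 and without library 2 it was -0.69 on the log2 scale. The mean of the progeny joins nIPC clusters that lay far apart in Fos. In the nIPC cluster led by S-phase genes, described below, the Fos range overlapped that of RGL. Cycling progenitors, which were not part of this contrast, had Fos at 802 and 775 CPM.

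Granule neurons, the end of that line, were set against the same progeny. Of the 10 genes 2 were higher and 4 lower, where 52.4% of all genes tested passed (25% higher and 27.4% lower). Egr3 was at 65.5 and 70.0 CPM against 6.25 and 5.24 CPM, 15.9-fold higher (log2 3.99, SE 0.29, adjusted p = 3e-13). Egr1 moved the other way, from 896 and 718 CPM in the progeny to 45.8 and 41.3 CPM, 17.5-fold lower (log2 -4.13, SE 0.58, adjusted p = 1.87e-07). For neither gene did the ranges overlap, and at this step the Egr genes moved in opposite directions. Fos was 8.19-fold lower (log2 -3.03, SE 0.60, adjusted p = 6.11e-05) and Jund 2.24-fold lower (adjusted p = 0.000126). Without cells rich in microglia markers granule neuron Fos of library 1 went from 58.0 to 3.92 CPM, and its log2 difference was -4.28. Fosl2 was 2.73-fold higher at 6.55 and 8.92 CPM (log2 1.45, SE 0.51, adjusted p = 0.0166), with a log2 difference of 1.74 without library 1 and 0.75 without library 2. For Egr2, 1 UMI in granule neurons stood against 65 in the progeny, a ratio of 0.10 with a 95% interval of 0.00251 to 0.580 (adjusted p = 0.0109, and 0.0571 with DESeq2). Its fitted log2 difference was -3.05, and the unfitted values were -2.21 without library 1 and -1.46 without library 2. Jun (log2 0.57, SE 0.35), Junb (log2 0.28, SE 0.33), Atf3 (log2 1.33, SE 0.63) and Fosb (log2 -1.01, SE 0.43, adjusted p = 0.0504) did not pass. The Atf3 values of 70.2 and 7.51 CPM lay far apart, and without cells rich in microglia markers that of library 1 was 4.90 CPM. Granule neurons rested on 49 and 106 cells.

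In the oligodendrocyte line OPC were set against oligodendrocytes, with 25 and 56 OPC. Here 6 genes were higher and 1 lower, where 37.4% of all genes tested passed (18.9% higher and 18.5% lower). Egr1 was at 463 and 248 CPM against 22.7 and 16.9 CPM (log2 3.29, SE 0.61, adjusted p = 3.93e-05), Fosb at 140.0 and 62.5 CPM against 8.40 and 8.60 CPM (log2 2.63, SE 0.57), Junb at 250.4 and 105 CPM against 23.4 and 25 CPM (log2 1.95, SE 0.46), and Fos at 314 and 138 CPM against 21.7 and 32.4 CPM (log2 2.15, SE 0.68, adjusted p = 0.0109). Jun (log2 1.14, SE 0.43, adjusted p = 0.0345) and Atf3 (log2 3.23, SE 0.77, adjusted p = 0.00086) passed too, but Atf3 was at 309.8 and 13.4 CPM in the OPC. In library 1, 3 of the 25 OPC were rich in microglia markers, whose sum was 1961 CPM there and 127 CPM in library 2. Without such cells Atf3 of library 1 OPC was 20.7 CPM and Jun 388 CPM, and neither call held (adjusted p = 0.755 and 0.621), while the other 4 held. Without library 1 the log2 differences were smaller, 1.28 for Fos, 2.01 for Fosb, 1.25 for Junb, 0.29 for Jun and 0.21 for Atf3. Without library 2 they were 2.99, 3.16, 2.56, 1.79 and 4.28. Jund was lower (log2 -0.76, SE 0.28, adjusted p = 0.0290), yet its CPM ranges overlapped and total-count scaling put the difference at 0.060, and it was -1.35 without library 1 and -0.28 without library 2. With total-count scaling the median of all genes moved by 0.69, and the share of calls that were higher went from 50.5% to 82.5%. In the RGL and astrocyte contrast that shift was 0.31, and the share went from 46.1% to 75.0%. Fosl2 (1 UMI in OPC), Egr2 (2 UMIs) and Egr3 (0 UMIs) were too sparse.

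Microglia, the immune cells of the tissue, were also set against astrocytes. These classes had the highest and the lowest summed level of the same 10 genes and the contrast was chosen with earlier results known, so its differences are given as a description and support nothing further. All 10 genes passed as higher in microglia, where 71.2% of all genes tested passed (37.4% higher and 33.9% lower). The median over the 10 was 6.17 on the log2 scale and that over all genes 0.06. Atf3 differed by 174-fold (log2 7.44, SE 0.64), Egr1 by 123-fold (log2 6.94, SE 0.64) and Fos by 63.0-fold (log2 5.98, SE 0.66). Jund (21.4-fold) and Fosl2 (18.7-fold) differed least. Egr2 had 1670 UMIs against 3, a ratio of 132 with a 95% interval of 45.2 to 642.

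Between the macrophage classes few of the genes passed the test. Only Egr1 was higher in microglia than in border macrophages (log2 1.34, SE 0.49, adjusted p = 0.0425), and only Fosl2 was lower (log2 -2.65, SE 0.19, adjusted p = 1.44e-13), 6.28-fold, where 25.3% of all genes tested passed (13.4% higher and 11.9% lower). The Egr1 call was lost without the library block (adjusted p = 0.0738), with a minimum of 2000 UMIs per cell (0.0518), after removal of 5% free RNA (0.203) and with DESeq2 (0.250). Jun did not pass at 8673 and 6860.0 CPM against 3901 and 3369 CPM (log2 1.03, SE 0.40, adjusted p = 0.060), nor did Atf3 (log2 0.89, SE 0.48), Junb (log2 0.58, SE 0.34), Fos (log2 0.41, SE 0.52), Jund, Fosb, Egr2 or Egr3. The number of the 10 genes called higher moved between 0 and 7 with the settings.

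At the vessel wall, endothelial cells were set against the mean of pericytes and smooth muscle, together the mural cells. Of the 10 genes 3 were higher and 1 lower, where 40.3% of all genes tested passed (22.9% higher and 17.4% lower). Jun was at 2980.2 and 2328 CPM against 1219 and 935 CPM (log2 1.34, SE 0.34, adjusted p = 0.00134), and Jund at 2168 and 1806 CPM against 1039.8 and 828 CPM (log2 1.13, SE 0.22, adjusted p = 5.39e-05). Egr1 was 4.62-fold lower in endothelial cells, at 147 and 192 CPM against 853 and 785 CPM (log2 -2.21, SE 0.48, adjusted p = 0.000237). Egr3 passed at 6.74 and 15.7 CPM against 5.22 and 3.89 CPM (log2 1.26, SE 0.45, adjusted p = 0.0242), but not after removal of 5% free RNA (0.0718) or with DESeq2 (0.0752), and the difference was 1.87 without library 1 and 0.46 without library 2. Fos, at 1254 and 1340.1 CPM against 1743 and 1611 CPM, did not pass (log2 -0.29, SE 0.46), nor did Fosb, Fosl2, Junb, Egr2 or Atf3.

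**Figure D3:**
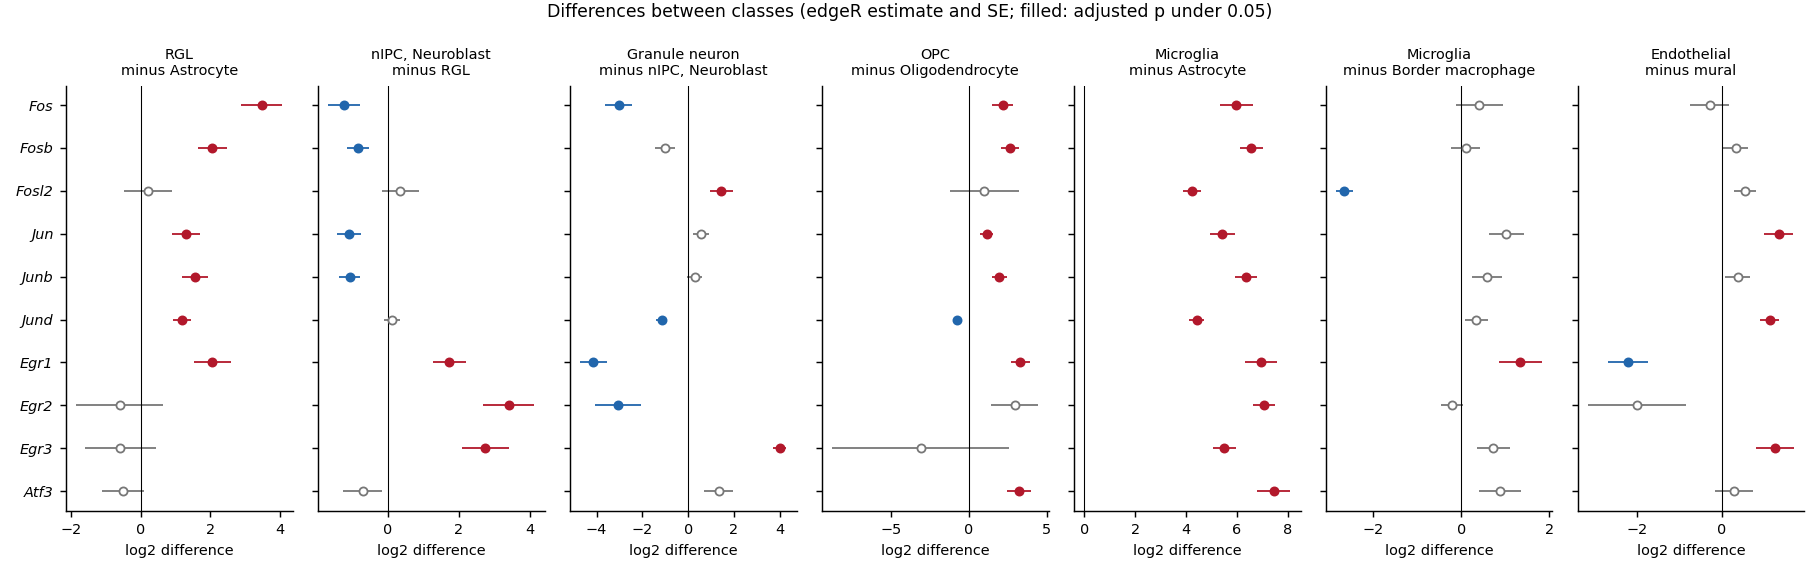
Log2 difference (x axis) with its SE for each of the 10 genes in 7 contrasts between classes (panels). Filled red and blue points passed at an adjusted p under 0.05 as higher and lower, and open grey points did not pass. In the contrast of nIPC and neuroblasts with RGL the Egr genes lie right of 0 (Egr1 at 1.73) and Fos, Fosb, Jun and Junb left of it (Fos at -1.23).

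Related genes, listed for their place in the same system, gave the surroundings of these differences. Their counts stand beside the shares over all genes tested, which for RGL against astrocytes were 15% higher and 17.6% lower. Between RGL and astrocytes, 1 of 14 tested AP-1, ATF and Egr-linked factors was higher (Maff, a small MAF protein, log2 2.0, SE 0.50) and 1 was lower (Atf7, log2 -0.55, SE 0.15). Of 28 other immediate early genes 9 were higher and 4 lower, among them Ier2 at 96.6 and 122 CPM against 23.2 and 17.1 CPM (log2 2.11, SE 0.32) and the nuclear receptor Nr4a1 (log2 3.19, SE 0.53) on the higher side. Trib1 (log2 -2.11, SE 0.25) and Dusp6, a phosphatase that turns off ERK (log2 -1.43, SE 0.20), were lower in RGL. Of 18 inputs of the SRF, CREB and MAP kinase routes 2 were higher and 2 lower, with Mapk10 lower (log2 -1.61, SE 0.20) and the CREB family gene Crem higher (log2 0.94, SE 0.22). Of 13 heat shock and chaperone genes 5 were higher, with Hsp90aa1 at 755 and 685 CPM against 252 and 229 CPM (log2 1.24, SE 0.16), and 2 were lower, with Hspa5 at log2 -0.65 (SE 0.19).

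From RGL to nIPC and neuroblasts, 7 of 28 other immediate early genes rose and 9 fell. These counts were near the shares over all genes tested, 27.7% higher and 30.4% lower. Bhlhe40 fell from 67.6 and 89.9 CPM to 1.27 and 2.09 CPM (log2 -5.77, SE 0.24), the matricellular gene Ccn1 by 4.92 and Klf4 by 3.13 on the log2 scale, while Ier5 rose from 67.1 and 68.0 CPM to 409 and 384 CPM (log2 2.43, SE 0.21). Of the 14 AP-1, ATF and Egr-linked factors 2 were higher, Atf4 (log2 1.10, SE 0.21) and Atf2 (log2 0.51, SE 0.13), and 1 was lower, the AP-1 repressor Jdp2 (log2 -1.68, SE 0.44). Of the inputs 8 were higher and 5 lower, with Mapk8, which encodes the JUN kinase JNK1, at log2 2.18 (SE 0.17) and Creb1 at log2 0.94 (SE 0.12). Of the chaperones 4 were higher and 1 lower. In granule neurons against that progeny, 8 of the 28 were higher and 9 lower, where 25% of all genes tested were higher and 27.4% lower. Npas4, a gene known to be induced by neuronal activity, was at 7.49 and 43.2 CPM against 0.570 and 0.323 CPM (log2 5.80, SE 0.48), and Ier2 was lower (log2 -4.80, SE 0.39). Of the AP-1, ATF and Egr-linked factors 3 were higher, led by Jdp2 (log2 3.72, SE 0.40) and with the EGR corepressor Nab2 (log2 2.44, SE 0.30), and 6 were lower, led by Atf4 (log2 -2.18, SE 0.26). Of the 18 inputs 11 were higher, led by Map2k1 at 300.3 and 318 CPM against 13.2 and 14.9 CPM and the SRF coactivator Mrtfb (log2 4.89, SE 0.14), and 3 were lower. Of the chaperones 1 was higher and 4 lower.

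In OPC against oligodendrocytes 11 of the 28 were higher and 2 lower, led by Trib1 (log2 6.43, SE 0.58) and Dusp6 (log2 4.58, SE 0.50), and 1 of 14 AP-1, ATF and Egr-linked factors was higher (Nab2, log2 5.38, SE 1.05) and 2 lower. Of the inputs 2 were higher and 3 lower, and of the chaperones 0 were higher and 4 lower. The shares over all genes tested were 18.9% higher and 18.5% lower in OPC. In microglia against astrocytes 21 of 28 were higher and 4 lower, 10 of 14 AP-1, ATF and Egr-linked factors were higher and 2 lower, 11 of 18 inputs were higher and 3 lower, and 10 of 13 chaperones were higher and 1 lower. Among these Maff was at 71.4 and 75.2 CPM against 2.17 and 1.34 CPM (log2 5.50, SE 0.31), whereas Bhlhe40 was lower in microglia (log2 -6.00, SE 0.23). Over all genes tested 37.4% were higher in microglia than in astrocytes and 33.9% lower. Against border macrophages, microglia had 4 of 28 higher and 9 lower, with Ccn1 at log2 -8.38 (SE 0.39), and 5 of 14 higher and 2 lower, with Batf3 at log2 3.71 (SE 0.45) and Batf2 at log2 -5.50 (SE 0.65). The inputs were 3 higher and 1 lower, and the chaperones 3 higher and 0 lower, where 13.4% of all genes tested were higher and 11.9% lower. In endothelial against mural cells 14 of 28 were higher and 4 lower, with the flow-responsive gene Klf2 at 3468 and 2342 CPM against 242 and 131 CPM (log2 4.47, SE 0.32). Of the AP-1, ATF and Egr-linked factors 4 were higher and 2 lower, of the inputs 10 and 2, and of the chaperones 6 and 4, with the inducible Hspa1a at 932 and 373 CPM against 113 and 73.4 CPM (log2 2.83, SE 0.23). In this contrast 22.9% of all genes tested were higher in endothelial cells and 17.4% lower.

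Levels also varied between clusters inside a class, which are described here without a test. Cluster 14 of the microglia (352 and 373 cells) stood well below the others. It had Fos at 844 and 533 CPM, Atf3 at 289 and 158 CPM, Egr1 at 764 and 568 CPM and Egr3 at 1.07 and 2.27 CPM. Cluster 13 (909 and 602 cells) held the most Fosb, 1719 and 1636 CPM, with Fos at 4489 and 3053 CPM. Cluster 22 (332 and 346 cells), led by the cytokine genes Ccl4, Ccl3 and Tnf, had less Fosb, 759 and 767 CPM, but the most Egr3, 54.1 and 52.1 CPM. Egr3 and Fosb thus had different orders among microglia. The 10 genes were left out of the clustering, but genes that vary with them were not.

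In the neurogenic line the nIPC clusters lay far apart. The nIPC of cluster 19, led by S-phase genes (133 and 134 cells), had Fos at 957 and 718 CPM and Egr1 at 1124 and 936 CPM. Those of cluster 0 (393 and 310 cells) had Fos at 185 and 107 CPM and Egr1 at 544 and 356 CPM, and Fosb was at 117 and 88.1 CPM against 8.42 and 6.78 CPM. The cycling progenitors, named from G2/M markers, lay near cluster 19. In RGL, cluster 11 (469 and 674 cells) had Fos at 662 and 945 CPM, and the shallow cluster 7 (104 and 133 cells, median 1843 UMIs) had 46.9 and 242 CPM. Neuroblast cluster 1 had Egr1 at 1142 and 957 CPM and the shallow cluster 12 (median 2276 UMIs) 55.8 and 56.1 CPM. Endothelial cluster 16 exceeded cluster 15 in Fos (1774 and 1934 CPM against 1027 and 1115 CPM), Egr1 (283 and 363 CPM against 87.6 and 128 CPM) and Egr3 (15.1 and 34.6 CPM against 3.08 and 8.47 CPM).

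**Figure D4:**
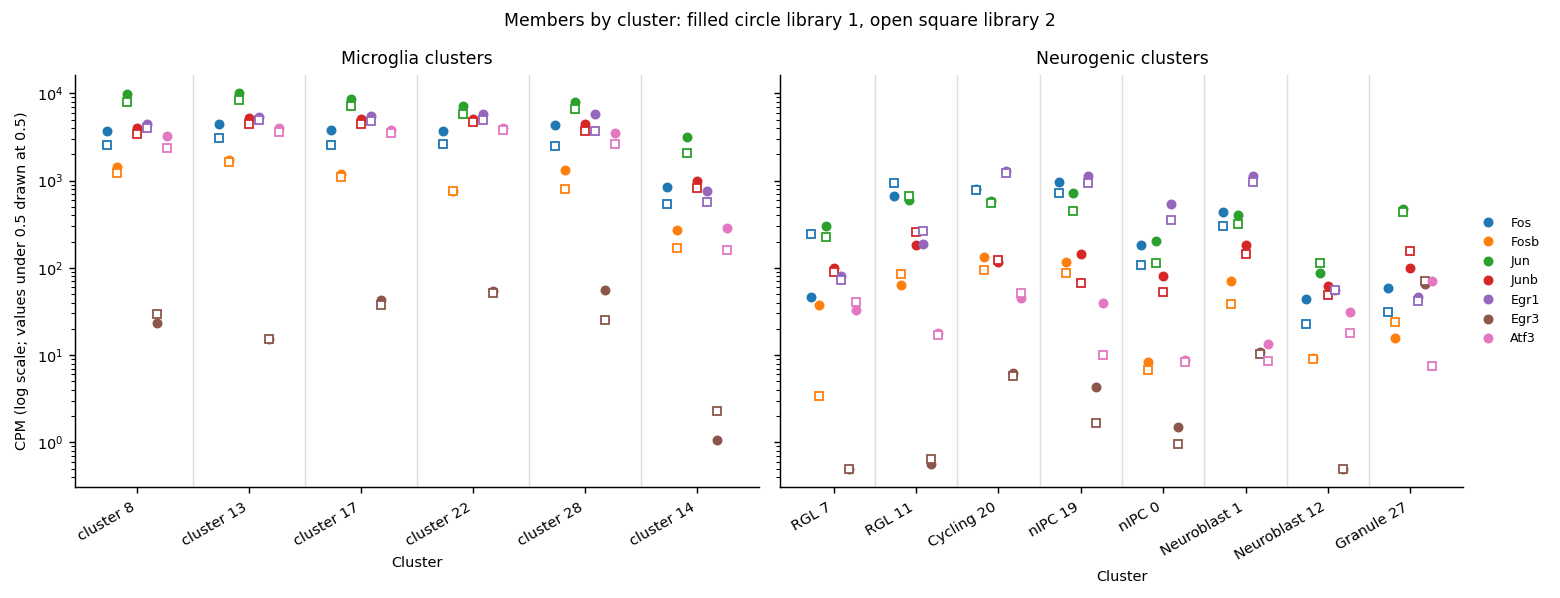
CPM on a log axis of 7 of the genes in each microglia cluster (left) and each cluster of the neurogenic classes (right), with filled circles for library 1 and open squares for library 2. Cluster 14 lies lowest among the microglia, cluster 19 of the nIPC lies above cluster 0, and in the granule neurons Egr3 lies close to Egr1.

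The libraries differed more in some classes than in others. Of 149 pairs of gene and class with at least 20 UMIs, 35 differed by more than 2-fold, against 6.63% of such pairs over all genes, and the median was -0.20 on the log2 scale (library 2 against library 1). RGL, microglia, neuroblasts and cycling progenitors had 0 past 2-fold, where 2.34%, 3.49%, 2.34% and 2.53% of all genes passed, and nIPC had 2 of 10 (2.25% of all genes). At 1.5-fold, 57 pairs differed, against 17.1% over all genes. Choroid plexus cells had 7 of 8 (40.4% of all genes), on 29 and 339 cells, and Fos there was at 11.3 and 476 CPM. A single cluster of 1 and 111 cells held most of it. OPC had 6 of 7 (7.86% of all genes), COP 5 of 7 (7.78%) and Cajal-Retzius cells 5 of 8 (5.08%), all with library 1 higher. By gene, Atf3 differed past 2-fold in 9 of 18 classes, the most of any. With 1 library per genotype, library, animals and genotype cannot be told apart.

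Microglia markers moved with several of these values. They summed to 23653 and 22894 CPM in microglia, to 795 and 329 CPM in COP, to 386 and 130 CPM in Cajal-Retzius cells and to 5300 and 2746 CPM in erythroid cells, in which 52.0% and 26.8% of cells were rich in them. A cell counted as rich with at least 3 marker UMIs that made up at least 0.1% of its UMIs. Without such cells Fos in library 1 went from 233 to 51.5 CPM in COP and from 89.7 to 24.5 CPM in Cajal-Retzius cells, next to library 2 values of 50.4 and 22 CPM with all cells. Erythroid Egr1 of library 1 went from 1119 to 84.2 CPM. In cycling progenitors Atf3 went from 45.7 and 50.8 CPM to 8.71 and 13 CPM. In granule neurons of library 1 Egr1 went from 45.8 to 25.5 CPM. Whether microglial RNA raised the values in these cells was not tested.

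**Figure D5:**
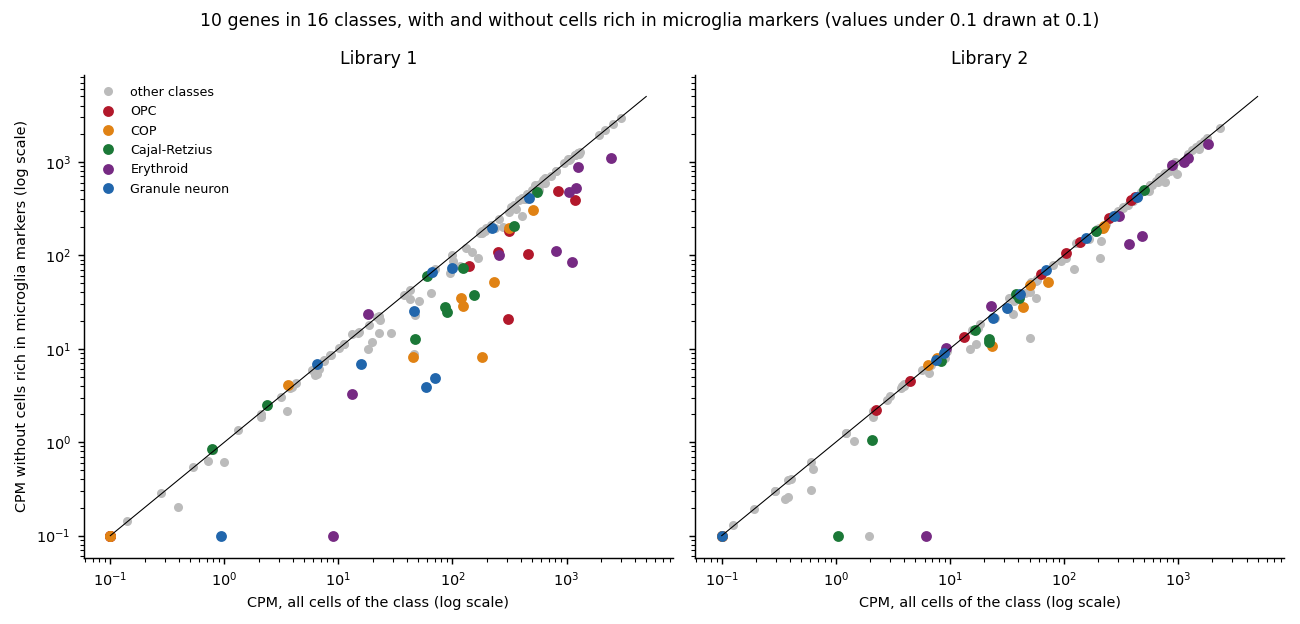
CPM of the 10 genes in 16 classes (all but the macrophages) with all cells (x axis) and without cells rich in microglia markers (y axis), both on log axes, by library. Points under the diagonal fell when such cells were left out, mostly those of OPC, COP, Cajal-Retzius, erythroid and granule neuron cells in library 1, such as OPC Atf3 from 309.8 to 20.7 CPM.

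Across the 18 classes, the 10 genes were compared by Pearson's r of log2(CPM + 10), as a description over points that share libraries and free RNA. Fosb and Junb were the most alike pair at 0.97, followed by Fosb with Jun, Jun with Junb and Fos with Fosb, all at 0.93. Egr3 stood apart, with r between 0.22 (Fos) and 0.52 to the other members. Outside the set, the genes most like Fos were Btg2 (0.93), Ier2 (0.92) and Coq10b (0.91), and those most like Fosb were Btg2 (0.95), Mcl1 and Zfp36 (both 0.94). Junb was closest to Zfp36 (0.96), which encodes an RNA-binding protein that speeds mRNA decay, Irf1 (0.95) and Sertad1 (0.94), and Jun to Klf6 (0.94). Atf3 was closest to Nfkbiz (0.98), an NF-kB regulator, then Il6ra and Map3k8 (both 0.96). Egr1 was closest to Ier5 (0.90), Ier2 (0.89) and Plekho1 (0.88), and Egr2 to Ticam2, Osm and 1600010M07Rik (all 0.97). Egr3 was closest to Vipr1 (0.87), Rgs14 and Klhl3 (both 0.85), Fosl2 to Ehd4 (0.87), and Jund to Rassf1 (0.93). In the GRCm38 annotation Junb (chr8:84974484-84978718, minus strand) and Jund (chr8:70698949-70700616, plus strand) share a chromosome without being neighbours. Antisense or overlapping genes exist for Jun (Junos), Junb (Prdx2), Jund (Gm11175) and Atf3 (Gm24748), and the sources used here do not say how strand was used in counting.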

How the data were processed

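The submitters' processing notes name Cell Ranger 4.0.0, the build mm10 and Scanpy 1.7.0. The deposited values are raw UMI counts per gene and barcode for both libraries in 1 unfiltered matrix, made by the authors without normalization. Barcodes with at least 1000 UMIs, 500 genes and at most 20% mitochondrial UMIs were kept, and scrublet doublets were removed (226 and 252). Cells were clustered with scanpy 1.11.5 (3000 variable genes before the tested lists, mitochondrial and sex-linked genes were left out, 40 components, 15 neighbours, resolution 1) and named from fixed markers. The scoring details, and the split of a mixed cluster into 5 parts, were set after seeing the data. CPM were computed from summed counts. Summed counts were tested with edgeR 4.0.16 (quasi-likelihood, trimmed mean of M values, 36 sums, 17 residual degrees of freedom, biological coefficient of variation 0.123). Sums ranged from 235634 to 24961847 UMIs. On data simulated for RGL against astrocytes over 15071 genes, 34.3% of genes changed 1.5-fold, 77.6% changed 2-fold and 97.0% changed 4-fold were recovered, and 12 of 151 calls were of unchanged genes. The changed genes were drawn only from those above a count minimum in these classes. Recovery of genes as sparse there as Egr2, Egr3 and Fosl2 was thus not measured. All 10 members are named in each contrast but that of microglia with astrocytes, where Fosb, Jun, Junb and Egr3 are covered by the count alone. Of each other list, up to 4 genes with the smallest adjusted p are named. For each member, up to 3 other genes most alike across classes are named. The members and lists were chosen with earlier results of these data known. Alternatives were DESeq2 1.42.0, other scalings, no filter, stricter cell filters, removal of free RNA, fits of the contrast's classes alone and leaving out a library. The comparison of control with cKO was not made, since no label ties a library to a genotype.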

Additional observations from a re-analysis of the deposited data

How the results depend on the processing

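Of 904 values of single results under other settings, 800 counted as kept, 18 lost a call, 51 gained one, 17 moved and 18 changed sign. Where a test was run, kept means the same direction and side of the threshold. Leaving out library 1 or library 2 gave no test, and 54 and 58 of those values counted as kept. There it means no change of sign and a distance from the fitted value below the standard deviation of the pair. With removal of a 5% free RNA share, RGL against astrocytes gave Egr2 0.0045 and Atf3 0.051, no OPC gene was lower, microglia against border macrophages had 0 genes higher, and endothelial against mural cells had 2 lower. That share is above the limit set by the scarcest member in RGL, astrocytes, nIPC, neuroblasts, granule neurons and oligodendrocytes, so it removes too much there. Without marker-rich cells (chosen after seeing the data) Atf3 was 0.20 for RGL against astrocytes and -0.58 for granule neurons against progeny, and 4 genes were higher in microglia than in border macrophages. Total-count scaling gave OPC Jund 0.060 with 0 genes lower, and 2 higher in microglia than in border macrophages. DESeq2 gave OPC Egr3 0.95, 2 genes lower in progeny than in RGL, 0 lower in OPC, 0 higher in microglia than in border macrophages and 2 lower in endothelial cells, and lost Jun for RGL (adjusted p = 0.0585). DESeq2's size factors gave 0 lower in OPC. No filter gave 4 higher in granule neurons, 7 in microglia over border macrophages and 5 in endothelial cells. Fits of the contrast's classes alone gave 1 lower in RGL, 5 higher in granule neurons and 7 in microglia over border macrophages. Without the erythroid, choroid plexus, COP and fibroblast sums (chosen after seeing the data) these were 4 in granule neurons and 6 in microglia, with Egr2 0.095 there. A mitochondrial limit of 10% gave 2, and a 2000 UMI minimum 0. In microglia against border macrophages the share of all calls that were higher was 52.9%, and 42.2% with DESeq2, 62.4% with no filter, 65.4% with the 10% limit, 74.8% without those sums and 65.7% without marker-rich cells, and in OPC it was 50.5%, 61.5% with DESeq2's size factors and 65.0% with DESeq2. Without mitochondrial UMIs in the total, Jund in microglia was 3477 CPM and Egr3 in granule neurons 71.1 CPM. At 1.5-fold, 57 pairs of gene and class differed between libraries, against 35 at 2-fold. The cause of these changes was not tested. Leaving out 1 library gave values with no test, which were differences of log2 CPM in the other library and not refits. RGL against astrocytes ran from -0.89 to 0.26 for Egr2 and -0.72 to 0.16 for Egr3. Progeny against RGL ran from -0.31 to 1.04 for Fosl2 and -0.036 to 0.27 for Jund, and granule neurons against progeny from -0.20 to 2.04 for Atf3 and -0.43 to 0.89 for Junb. OPC against oligodendrocytes ran from -0.41 to 0.69 for Fosl2 and -0.73 to 2.42 for Egr2. Microglia against border macrophages ran from -0.058 to 0.27 for Fosb, -0.43 to 0.011 for Egr2 and -0.033 to 2.05 for Egr3. Without the library block, which is the replicate block here, 0 genes were lower in OPC, Jun in OPC was lost (adjusted p = 0.0537), and 0 were higher in microglia than in border macrophages. No paired analysis was possible because each genotype is 1 library, the labels give no replicate numbers and the libraries are not tied to genotypes. Classes with few UMIs (OPC, COP, fibroblasts) limit what can be said of Egr2, Egr3 and Fosl2.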

Other observations

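Clusters left unnamed, because unrelated marker sets scored alike or because the cluster was shallow, also held these genes. Cluster 25 (33 and 34 cells) had Junb at 1938 and 1742 CPM, Fosl2 at 95.6 and 145 CPM and Egr2 at 15.3 and 46.9 CPM. Cluster 26 (68 and 91 cells) had Jun at 2429.6 and 2421 CPM and Fos at 1022 and 1466 CPM, and cluster 30 (36 and 75 cells) had Egr1 at 511 and 897 CPM. Cluster 26 scored 6.10 for endothelial and 5.89 for pericyte markers. The shallow cluster 9 (151 and 106 cells, median 1525 UMIs) had Fos at only 118 and 131 CPM. It scored highest for microglia markers (4.28) but had none among its leading genes, so it was kept out of the microglia.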
